A study of Mus musculus with 12 samples.

Results

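Rreb1 is 1 of the 32494 genes listed in a table of read counts scaled to library depth (CPM) from mouse hypothalamus. Of these genes, 15359, Rreb1 among them, averaged 1 CPM or more across all 12 libraries and are called tested genes here. Rreb1 was chosen by its measured group difference in these same libraries, as the largest decrease among genes past the test's threshold whose groups did not overlap. Its levels by group are therefore given as a description, with no test.

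RREB1 is a large zinc finger transcription factor that binds Ras-responsive DNA elements. It acts downstream of the Ras to ERK kinase cascade, can work together with SMAD proteins of the TGF-beta pathway, and is found with the CtBP corepressor complex, which carries histone-modifying enzymes. Loss of 1 copy of the human gene has been linked to a developmental disorder of the RASopathy kind.

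All mice were male, carried floxed Smc3 and were treated with tamoxifen, and tissue was taken 5 weeks later. The labels give an age of 8 weeks without a step. Mice lacking the Camk2a-cre/ERT2 transgene (Cre-) are labelled WT (n = 7), and mice with it (Cre+) are labelled cKO (n = 5). Camk2a-cre/ERT2 makes a tamoxifen-activated recombinase under a promoter of forebrain excitatory neurons, so bulk hypothalamus also holds cells that never carried the active enzyme. Every title in both groups also has the word control, which was not used. Libraries are named by group and the number in their title. No label says outright that each number is a separate animal, so p-values measure the spread between these libraries.

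Smc3, the floxed gene and a core subunit of the cohesin ring, was examined as a check of the labels, and it was higher, not lower, under the cKO label. Its mean was 81.6 ± 3.14 CPM (SD, n = 7) under the WT label and 131 ± 10.3 CPM (SD, n = 5) under the cKO label, a limma log2 difference of 0.67 (SE 0.05, adjusted p = 3.06e-05). Counts per gene cannot tell transcripts of a recombined allele from intact ones, so whether the floxed part was lost was not tested. WT and cKO below mean the labels only, and with the labels exchanged each group difference, that of Rreb1 included, would have the opposite sign. Depth was 17126005 to 24010001 reads in 11 libraries and 68744112 reads in WT 1. All 16 markers of hypothalamic neurons were above 1 CPM on average, but their summed level ran from 90.7 to 695.6 CPM over the WT libraries and from 186.5 to 784.8 CPM over the cKO libraries. Nr5a1, a defining gene of the ventromedial nucleus, was at 0 in at least 1 library.

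Rreb1 has 4 upstream windows in the RefSeq table of build GRCm38.p6, all on the plus strand of chromosome 13. The 250 bases before the 2 starts that lie furthest upstream are shown because reads were counted per gene, so the values below sum over starts and cannot tell them apart. The build of the deposited files is not given in the sources used here. Capitals mark matches, on either strand, to the GC box GGGCGG, the E-box CACGTG and the cAMP-response core TGACG.

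Rreb1 start A, chr13:37825788-37826037, plus strand: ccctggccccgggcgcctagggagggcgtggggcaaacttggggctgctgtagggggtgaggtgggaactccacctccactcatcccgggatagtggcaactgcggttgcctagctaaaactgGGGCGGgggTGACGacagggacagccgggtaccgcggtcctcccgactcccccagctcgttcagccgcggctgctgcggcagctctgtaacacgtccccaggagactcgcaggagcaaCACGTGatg

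Rreb1 start B, chr13:37826662-37826911, plus strand: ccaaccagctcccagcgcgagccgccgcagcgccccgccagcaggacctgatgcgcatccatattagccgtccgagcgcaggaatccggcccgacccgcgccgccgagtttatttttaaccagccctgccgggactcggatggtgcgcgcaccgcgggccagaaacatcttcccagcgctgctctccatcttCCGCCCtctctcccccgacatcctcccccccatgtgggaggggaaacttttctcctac

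Start A holds 1 match to each of the 3 motifs and start B holds 1 match to GGGCGG alone. Among 32851 windows of 250 bases in the same table, 32.7% hold GGGCGG, 6.02% hold CACGTG and 17.8% hold TGACG, so a match is a description and not a site. The other 2 windows hold none of the 3. One gene overlaps Rreb1 in GENCODE M21, the antisense Gm46411, which reached at most 0.0433 CPM. The strand setting of the counting is not given in the sources used here.

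Rreb1 was lower in every cKO library than in any WT library. In the WT libraries it was at 78.9 CPM in WT 5, 102 in WT 4, 105 in WT 15, 129 in WT 7, 149 in WT 6, 151 in WT 1 and 238 in WT 11. In the cKO libraries it was at 30.8 CPM in cKO 13, 39.2 in cKO 12, 54.2 in cKO 14, 54.9 in cKO 9 and 64.2 in cKO 8. The groups did not overlap, and the lowest WT library stood 1.23 times above the highest cKO library. Over all tested genes, 6.73% had groups that did not overlap, and 3.2% had them with cKO lower.

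**Figure D1:**
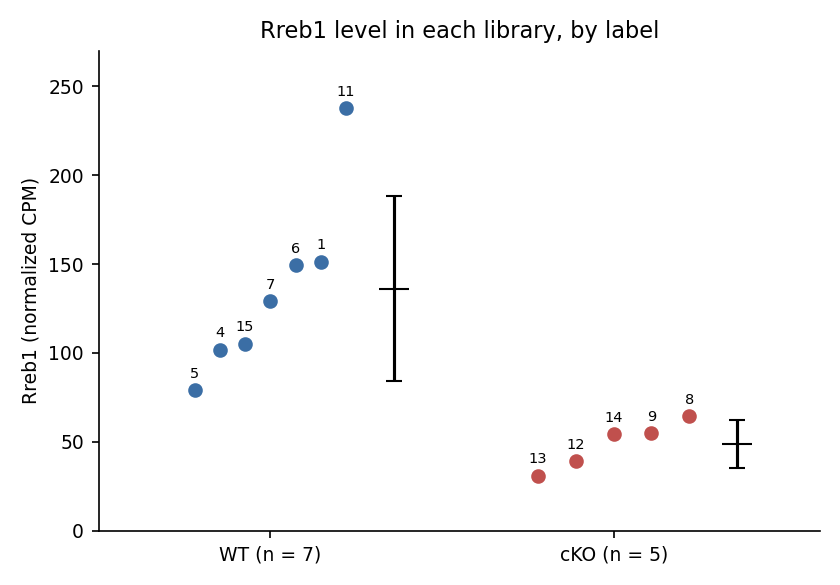
Normalized CPM of Rreb1 (vertical axis, linear from 0) in each library, by label, with the library number above each point; bars at the right of each group are the mean and SD. WT libraries run from 78.9 to 238 CPM and cKO libraries from 30.8 to 64.2 CPM, with WT 11 at the top.

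The mean was 136 ± 52.0 CPM (SD, n = 7) in WT and 48.6 ± 13.4 CPM (SD, n = 5) in cKO, a ratio of 0.357. On the log2(CPM + 1) scale the difference was -1.43, and the next gene in that order, Zim1, an imprinted zinc finger gene, differed by -1.26. Prkcd, a kinase gene used here as a thalamic marker, differed by -1.44, but its groups overlapped. The authors' deposited table gives a log2 fold change of -1.485 for Rreb1. Without WT 11 the WT mean was 119 ± 28.9 CPM (SD, n = 6) and the ratio 0.408. In bulk tissue, fewer cells that express a gene and less RNA per cell cannot be told apart.

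Rreb1 varied widely among libraries of the same label. Its coefficient of variation was 38.2% in WT and 27.6% in cKO, with a 3.01-fold and a 2.09-fold range. It was counted with 648 reads (cKO 13) to 10411 reads (WT 1), for which counting error alone gives a coefficient of variation of 3.93% at the fewest of these reads and 0.98% at the most. The SD of log2(CPM + 1) was 0.51 in WT and 0.42 in cKO, and 98.6% and 96.8% of the other tested genes had a lower one in the same libraries. Among 4013 genes with a mean of 50 to 200 CPM, the median SD was 0.08 in WT and 0.10 in cKO. Rreb1 thus spread more between like-labelled libraries than most genes of its level.

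Which genes follow Rreb1 was asked within group, from the deviation of each library from its group mean, a measure that the group difference does not enter. The closest gene was Celf5, which encodes a brain RNA-binding protein of the CELF family of splicing regulators. Its Pearson r with Rreb1 was 0.969 over the 12 libraries (exact permutation p = 8.27e-06 over 604800 reorderings within group) and its Spearman rho 0.944 (exact p = 5.46e-05). Celf5 was picked for the highest r, and its exact p-values are not adjusted for that choice. The limma adjusted p of the slope over 15358 genes was 1.81e-04. Within WT alone r was 0.958 (n = 7) and within the 5 cKO libraries it was 0.996. Without WT 5 and WT 11, the libraries farthest from the median of these within-group deviations of Rreb1, r was 0.955.

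Celf5 was at 111 CPM in WT 5, 134 in WT 4, 157 in WT 15, 158 in WT 7, 168 in WT 1, 179 in WT 6 and 217 in WT 11. In cKO it was at 97.0 CPM in cKO 13, 115 in cKO 12, 138 in cKO 14, 141 in cKO 9 and 162 in cKO 8. WT 5 and cKO 13 were thus lowest for both genes in their group, and WT 11 and cKO 8 highest. The groups overlapped for Celf5, with means of 161 ± 33.6 CPM (SD, n = 7) and 131 ± 25.2 CPM (SD, n = 5) and a limma log2 difference of -0.29 (SE 0.15, adjusted p = 0.205).

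Rreb1 and Celf5 therefore ran along separate lines in the 2 groups. The ratio of Rreb1 to Celf5, each in CPM and so not per length, was 0.668 to 1.10 in the WT libraries (0.826 ± 0.142, SD, n = 7) and 0.317 to 0.396 in the cKO libraries (0.367 ± 0.0359, SD, n = 5). At an equal Celf5 level, a regression with group as a term put Rreb1 0.98 log2 units lower in cKO (coefficient -0.98), against -1.43 without Celf5. This is a description, since the choice of Rreb1 fixed the direction of the group difference.

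**Figure D2:**
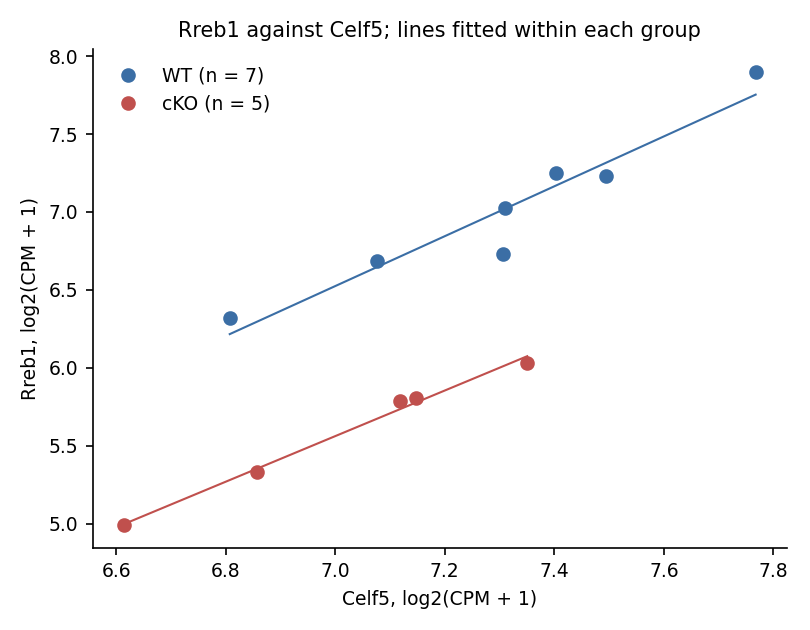
Rreb1 (vertical) against Celf5 (horizontal), both as log2(CPM + 1), 1 point per library, with a least-squares line within each group. The cKO points lie on a line below the WT line, at an offset of -0.98 log2 units in the regression with group as a term.

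The 9 next genes had r from 0.940 to 0.962 over the 12 libraries. They were Myt1, a zinc finger factor of neural development (0.962), Cpt1c, the neuronal carnitine palmitoyltransferase isoform (0.957), Map3k15, a kinase of the MAP3K family (0.950), the predicted gene Gm52328 (0.949), Omp, the olfactory marker protein (0.949), Mtss1, which binds actin and membranes (0.944), Gatd1 (0.942), Fam189a1 (0.941) and Rxfp3, the receptor of relaxin-3 (0.940). Over the 10 genes, rho was 0.818 to 0.972 and the exact permutation p at most 1.90e-04 for r and 0.00353 for rho. The 10 were picked by r in these same libraries, so these values describe the choice. The exact p-values are per gene and not adjusted over all genes. The limma adjusted p was at most 0.0101, r within WT was 0.933 to 0.981, and r without WT 5 and WT 11 was 0.878 to 0.955.

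Omp showed the widest swings of the 10, on few reads. It was at 0.444 CPM in WT 4, which is 9 reads, at a median WT value of 1.56 CPM (WT 7), and at 5.58 CPM in WT 11. In cKO it was at 1.52 CPM in cKO 13, 1.73 in cKO 12, 3.14 in cKO 14, 4.12 in cKO 9 and 7.93 in cKO 8. WT 11 and cKO 8 were again highest, and the limma slope of Omp was 1.504 log2 units per log2 unit of Rreb1 (SE 0.15), against 0.61 (SE 0.05) for Celf5 and 0.20 (SE 0.04) for Gatd1.

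The group differences of these genes are set beside that of Rreb1, whose size was the ground for its choice. Their limma log2 differences ran from -0.51 to 0.69, and 1 of the 10, Gm52328, was past the threshold of an adjusted p of 0.05, where 14.1% of all tested genes were (6.54% higher and 7.6% lower in cKO). That background was 2172 genes, 1004 of them higher, against 1161 genes without WT 1, 682 with the thalamic marker score as a covariate, and 2431 genes, 1377 of them higher, after median centring. Gm52328 was at 1.504 ± 0.414 CPM (SD, n = 7) in WT and at 0.745 ± 0.175 CPM (SD, n = 5) in cKO (limma log2 difference -0.51, SE 0.12, adjusted p = 0.0143). Its groups did not overlap, and its lowest value rested on 11 reads. Omp was the one with a positive difference, 0.69 (SE 0.38, limma adjusted p = 0.235). In regressions of Rreb1 on group and each of the 10 in turn, the group coefficient was -1.84 to -0.26. These are a description, since the choice of Rreb1 fixed the direction of its group difference. The value of -0.26 was for Gm52328, for which the groups shared no level.

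The genes that ran opposite to Rreb1 were about as tightly tied to it. The 5 lowest were Snn, which encodes the small membrane protein stannin (r = -0.968), Ptp4a2, a protein tyrosine phosphatase (-0.957), Vps26c, a subunit of the endosomal retriever complex (-0.956), Sdha, the flavoprotein of succinate dehydrogenase (-0.951), and Mpp7, a membrane scaffold gene (-0.949). Their rho was -0.979 to -0.846, with limma adjusted p of 0.00208 to 0.0106 and exact permutation p of at most 7.94e-05 for r and 0.00183 for rho. They too were picked by r, and the exact p-values are not adjusted for that choice. Snn was lowest in WT 11, at 142 CPM, and highest in cKO 13, at 189 CPM. Of the 5 genes, 0 were past the threshold between the groups, where 14.1% of all tested genes were. Their limma log2 differences were 0.04 to 0.14, with adjusted p of at least 0.0749.

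**Figure D3:**
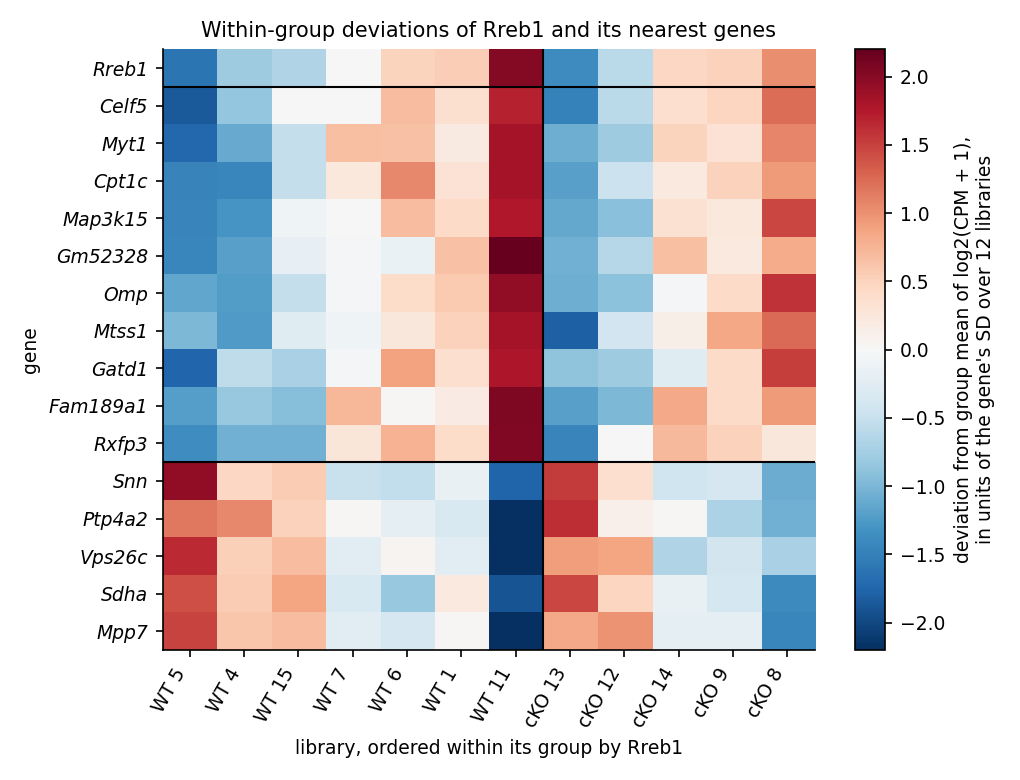
Deviation of log2(CPM + 1) from the group mean, in units of each gene's SD over the 12 libraries, for Rreb1 (top row), the 10 genes with the highest and the 5 with the lowest r; libraries are ordered within their group by Rreb1. The upper genes turn from low to high across each group in step with Rreb1 and the lower 5 the other way, most clearly at WT 5, WT 11, cKO 13 and cKO 8.

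Such a pattern was common in these libraries. The limma slope on Rreb1 was past an adjusted p of 0.05 for 2147 of 15358 genes (14%), with 969 rising with it (6.31%) and 1178 falling (7.67%). The count was 807 without WT 5, 1259 without WT 11, 1240 without cKO 8, 1426 without cKO 13 and 238 in the WT libraries alone. An r above 0.8 was found for 462 genes and one below -0.8 for 602, together 6.93%. The first principal component of the within-group deviations, computed without Rreb1, held 45.6% of their variance. Its r with Rreb1 was 0.885 (exact permutation p = 2.65e-04), its rho 0.846 (exact p = 0.00149), and r was 0.847 without WT 5 and WT 11, while 95.8% of tested genes had a smaller absolute r with it. With that component as a covariate, an alternative chosen after seeing the data, limma placed 0 genes past the threshold and 1034 at an unadjusted p under 0.05.

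**Figure D4:**
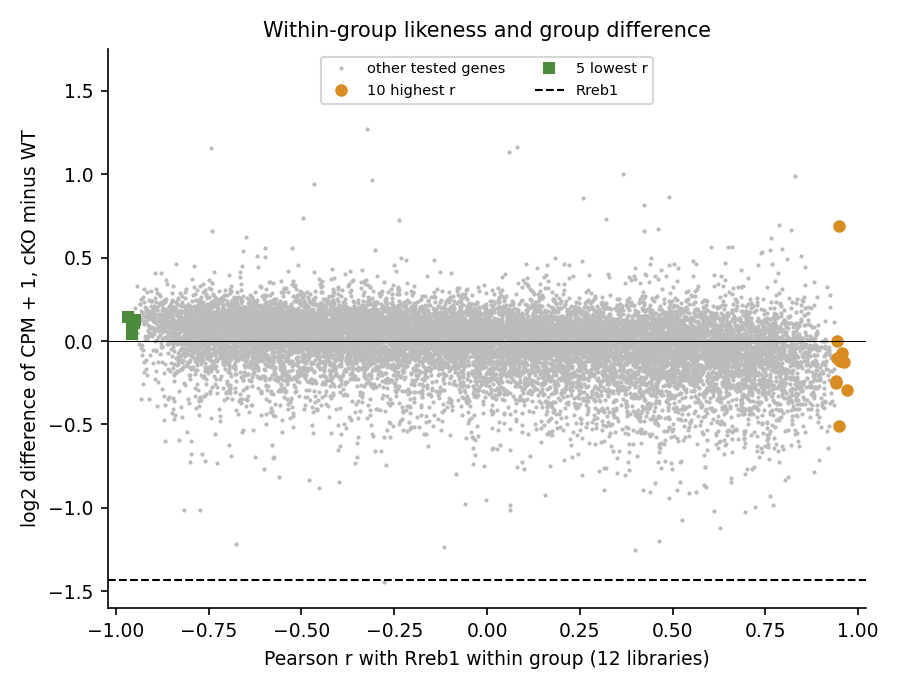
Each tested gene's Pearson r with Rreb1 within group (horizontal) against its log2 difference, cKO minus WT, of log2(CPM + 1) (vertical); the dashed line is the difference of Rreb1. The 10 genes with the highest r lie between -0.51 and 0.69 and the 5 with the lowest between 0.04 and 0.14, against -1.43 for Rreb1.

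Some marker lists of brain regions and cell types moved with Rreb1 within group. For 10 lists, the score (mean log2(CPM + 1)) was compared with Rreb1 by an exact permutation test, two-sided and adjusted over the 10; 5 passed by r and 2 of them by rho. The astrocyte score ran opposite to Rreb1 (r = -0.912, exact p adjusted 0.00382; rho = -0.797, exact p adjusted 0.0229; r = -0.809 without WT 5 and WT 11). So did the score of mammillary neurons of the posterior hypothalamus (r = -0.851, exact p adjusted 0.00382; rho = -0.776, exact p adjusted 0.0229; r = -0.798 without WT 5 and WT 11). The endothelial (r = -0.799, exact p adjusted 0.0136) and oligodendrocyte scores (r = -0.726, exact p adjusted 0.0282) were past the threshold by r and not by rho (rho = -0.713, exact p adjusted 0.0628, and rho = -0.636, exact p adjusted 0.0792). Their r without WT 5 and WT 11 was -0.686 and -0.725. The ependymal and choroid plexus (r = 0.256, exact p adjusted 0.561), pan-neuronal (r = -0.219, exact p adjusted 0.596) and microglial scores (r = 0.161, exact p adjusted 0.655) were not past the threshold.

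Over all genes, 6.31% rose and 7.67% fell with Rreb1 by limma. Of the mammillary list, 5 of 6 genes fell, among them Lmx1a, a transcription factor of that region (r = -0.858, adjusted p = 0.00348). The summed level of the list ran from 8.18 to 125 CPM in WT and from 7.97 to 174 CPM in cKO. Between the groups, 0 of the 6 were past the limma threshold, where 6.54% of all tested genes were higher and 7.6% lower in cKO. Of the astrocyte list, 5 of 6 fell, with Aqp4, the water channel of astrocyte endfeet, at r = -0.915 (limma adjusted p = 0.00192), and Slc1a3, a glutamate transporter, rose (r = 0.695, limma adjusted p = 0.0382). Of the hypothalamic list, 5 of 16 rose with Rreb1, among them Oxt (r = 0.838, limma adjusted p = 0.00446) and Avp (r = 0.831, limma adjusted p = 0.00517), the peptides of magnocellular neurons. Its score was not past the threshold (r = 0.592, exact p adjusted 0.0959; rho = 0.448, exact p adjusted 0.282; r = 0.738 without WT 5 and WT 11), and Hcrt, the orexin gene, had r = -0.465. The cortical and striatal score had r = 0.710 (exact p adjusted 0.0282; rho = 0.636, exact p adjusted 0.0792; 0.494 without WT 5 and WT 11), but its genes went both ways: 3 of 11 rose, such as Tbr1 (r = 0.923), and 4 fell, such as Neurod2 (r = -0.918, limma adjusted p = 0.00192 for both).

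**Figure D5:**
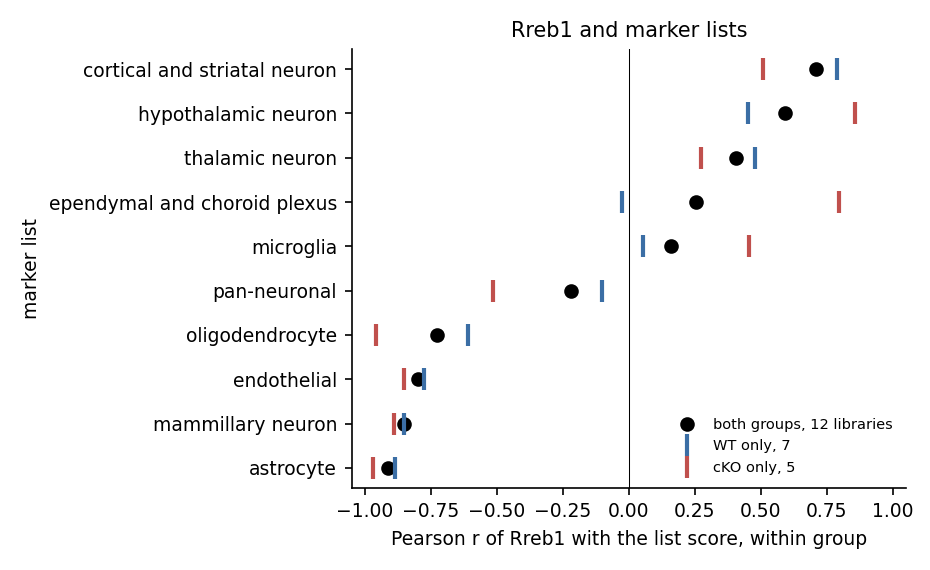
Pearson r of Rreb1 with the score of each of 10 marker lists within group (horizontal), over both groups (black points), the 7 WT libraries (blue ticks) and the 5 cKO libraries (red ticks). The astrocyte and mammillary scores lie below -0.8 in each of the 3 sets.

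Some thalamic markers were lower in cKO. Within group, 3 of the 12 genes of that list rose with Rreb1 by limma and 0 fell, beside 6.31% and 7.67% of all genes, and its score had an r of 0.407 with Rreb1 (exact permutation p adjusted 0.307; rho = 0.273, exact p adjusted 0.515; 0.148 without WT 5 and WT 11). Between the groups, 5 of its 12 genes were lower in cKO by limma and 0 higher, beside 7.6% and 6.54% of all tested genes, with a median log2 difference of -0.57 against 0.01 over all tested genes. Its summed level was 1020 to 1893 CPM in WT and 723.6 to 1151 CPM in cKO, with overlap, and 0 of its genes were at 0 in any library. Once the thalamic score was in the model, the log2 difference of Rreb1 was -1.13 in place of -1.43, and the highest genes kept r of at least 0.928 with it. The hypothalamic list had a median log2 difference of 0.42 between the groups. Of its 16 genes, 1 was higher in cKO by limma (Sim1, 0.56) and 0 lower, beside the same shares of all tested genes.

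A pair of measures of RNA makeup, chosen after their values were seen, are given as a description with no test. The mitochondrial rRNA genes mt-Rnr1 and mt-Rnr2 together took 0.605% to 0.955% of CPM, most in WT 5 (0.955%) and, among cKO, in cKO 13 (0.848%). Their share had r = -0.756 with Rreb1 within group (rho = -0.776; r = -0.696 without WT 5 and WT 11). The share of 6 nuclear long noncoding RNAs, Meg3 and Malat1 among them, had r = 0.650 (rho = 0.720; r = 0.466 without WT 5 and WT 11). That share was 0.682% to 0.995% in WT and 0.496% to 0.631% in cKO, without overlap. Across 14514 genes matched to GENCODE M21 transcripts, which are not independent replicates, r with Rreb1 had a Spearman correlation of 0.143 with GC content and 0.0909 with transcript length. The part of regional makeup, cell makeup and RNA makeup in the levels of Rreb1 was not tested beyond these values.

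Genes of the pathways around RREB1 were compared between the groups by limma, over all 15359 genes. The Ras to ERK list had 3 of 42 genes higher and 2 lower in cKO, where 6.54% of all tested genes were higher and 7.6% lower, with a median log2 difference of 0.02 against 0.01 over all tested genes. Grb2, the adaptor that couples receptors to Ras activation, rose by 0.11 (limma adjusted p = 0.0456) and Mras, a Ras family GTPase, by 0.10 (limma adjusted p = 0.0421). Spry1, an inhibitor of receptor tyrosine kinase signalling, fell by 0.21 on the log2 scale (limma adjusted p = 0.0219), and Shc2, an adaptor, fell by 0.18 (limma adjusted p = 0.0435). Spry1 was past the threshold in 11 of 12 fits that each left out 1 library (limma adjusted p = 0.0536 without WT 1), against 3 for Shc2, 2 for Mras and 1 for Grb2. Once the thalamic score was in the model, Shc2 stayed past it (limma adjusted p = 0.029), and Spry1 (0.152), Mras (0.241) and Grb2 (0.415) did not. Within group, 2 of the 42 rose with Rreb1 and 1 fell, where 6.31% of all genes rose and 7.67% fell. Elk1, an ERK-regulated transcription factor, rose (r = 0.768, limma adjusted p = 0.0207) and Rasgrp2, a guanine nucleotide exchange factor, fell (r = -0.788, limma adjusted p = 0.0126).

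The TGF-beta and BMP list had 2 of 28 genes higher and 4 lower in cKO, beside 6.54% and 7.6% of all tested genes, with a median log2 difference of 0.01, beside 0.01 over all tested genes. The ligand Tgfb2 fell, with a WT mean of 16.5 ± 1.58 CPM (SD, n = 7) and a cKO mean of 12.9 ± 0.839 CPM (SD, n = 5) (log2 difference -0.33, SE 0.07, limma adjusted p = 0.0103). Its groups were narrowly apart, with the lowest WT library at 14.3 CPM and the highest cKO library at 14.1 CPM. Over all tested genes, 3.2% had groups apart with cKO lower. The ligands Bmp6 (-0.33, limma adjusted p = 0.0465) and Bmp2 (-0.31, limma adjusted p = 0.0361) fell as well. Skil, a SMAD corepressor, rose by 0.20 (limma adjusted p = 0.0297) and the receptor Bmpr2 by 0.15 (limma adjusted p = 0.0337). Tgfb2 was past the threshold in 12 of 12 fits that each left out 1 library, against 6 for Skil, 4 for Bmpr2, 2 for Bmp2 and 1 for Bmp6. Once the thalamic score was in the model, 0 of these 5 stayed past it (limma adjusted p = 0.0668 for Tgfb2 and 0.08 or more for the others). With Rreb1 within group, 4 of the 28 rose and 3 fell, beside 6.31% and 7.67% of all genes. Pmepa1, an inhibitor of TGF-beta signalling, was the most negative (r = -0.831, limma adjusted p = 0.0123).

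The CtBP corepressor list had 1 of 18 genes higher and 0 lower in cKO, beside 6.54% and 7.6% of all tested genes, with a median log2 difference of 0.00. Ctbp1 rose, with a WT mean of 265 ± 10.8 CPM (SD, n = 7) and a cKO mean of 288 ± 6.997 CPM (SD, n = 5) (log2 difference 0.12, SE 0.04, limma adjusted p = 0.0367), and it was past the threshold in 3 of 12 fits that each left out 1 library and not with the thalamic score as a covariate (limma adjusted p = 0.0845). Sin3b, a scaffold of histone deacetylase complexes, rose with Rreb1 within group (r = 0.887, limma adjusted p = 0.0145) and Zeb2, a zinc finger repressor, fell (r = -0.712, limma adjusted p = 0.0308).

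Of 11 genes reported as RREB1 targets in other systems, 5 were tested, and Hamp, Snai1, Has2, Il11, Ccn4 and Cdkn2a were under 1 CPM on average. By limma, 0 of the 5 were higher and 1 was lower in cKO, beside 6.54% and 7.6% of all tested genes. The tumour suppressor Trp53 fell, with a WT mean of 19.1 ± 0.851 CPM (SD, n = 7) and a cKO mean of 17.0 ± 0.867 CPM (SD, n = 5) (log2 difference -0.15, SE 0.05, limma adjusted p = 0.0487), and it was past the threshold in 1 of 12 fits that each left out 1 library and not once the thalamic score was in the model (limma adjusted p = 0.189). Calca, Agt, Slc39a3 and Pdgfb were not past it. Within group, 0 of the 5 were past the limma threshold with Rreb1, beside 14% of all genes, with r from -0.424 to 0.619.

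Cohesin shapes chromosome loops that can hold several genes, so the neighbours of Rreb1 on chromosome 13 were compared with it. Of the 5 listed genes on each side in RefSeq order, 7 were under 1 CPM on average, at most 0.433 CPM in any library, and 3 were tested. Ssr1, a subunit of the translocon-associated protein complex, was at 122 ± 8.31 CPM (SD, n = 7) and 124 ± 11.2 CPM (SD, n = 5), with a limma log2 difference of 0.03 (SE 0.06, adjusted p = 0.819). Riok1, an atypical kinase of ribosome assembly, was at 19.2 ± 0.623 and 19.1 ± 0.702 CPM (SD, n = 7 and 5; limma adjusted p = 0.979), and Cage1 differed by 0.08 (SE 0.08, limma adjusted p = 0.561). Among the 5 nearest tested genes on each side, 10 in all and widened after the values were seen, the predicted gene Gm30177 was past the threshold, at -0.50 (SE 0.15, limma adjusted p = 0.0430), and in 3 of 12 fits that each left out 1 library. Once the thalamic score was in the model it was not (-0.32, limma adjusted p = 0.33). The other 9, from Fars2 on one side to Snrnp48 on the other, were not past the threshold. Over all tested genes 14.1% were past it (6.54% higher and 7.6% lower in cKO), a share that 1 of 10 is close to. The 10 had log2 differences from -0.50 to 0.17 and r with Rreb1 within group from -0.641 to 0.568.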

How the data were processed

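RNA of 12 libraries was sequenced after Qiagen mini kit extraction and messenger RNA isolation (NEBNext Ultra II kit), per the labels' protocols. The submitters' processing notes list bcl2fastq, FastQC 0.11.9, STAR 2.7.9a, SAMtools, Subread and featureCounts, with no roles; the build and annotation are not given in the sources used here. The authors deposited normalized CPM for 32494 genes and the output of their test (log2 fold changes, p-values). The deposited CPM values were whole multiples of 1 step per library for 100% of values (tolerance 0.01 reads), so reads were recovered; edgeR's TMM factors computed from them (0.987 to 1.02) equal the deposited scaling. Columns were matched by name, and 0 were left unused.

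The test was limma 3.58.1 (R 4.3.3; lmFit, eBayes with trend) on log2(CPM + 1), which understates changes of low genes, over the 15359 genes averaging 1 CPM or more, Benjamini-Hochberg adjusted, threshold 0.05. The slope on Rreb1 used its deviation from the group mean, with group as covariate. Exact permutation tests took all 604800 reorderings within group, with a smallest p of 1.65e-06. On simulated counts, limma recovered 197 of 197 genes changed by 1 log2 unit between groups (12 false calls, 15353 genes). It recovered 200 of 200 with a slope of 1 (5 false calls, 15347 genes). Recovery and false calls at smaller changes, or with a component shared across libraries like the one described above, were not tested. On recovered reads edgeR 4.0.16 (quasi-likelihood) called 2098 genes between groups and 2101 with Rreb1; DESeq2 1.42.0 called 2747 and 2697. A floor of 3 reads was 0.0436 to 0.178 CPM and, without molecular identifiers, covers counting error only. Alternatives were another pseudocount, scaling, filter and test, a thalamic score covariate, WT only, ranks, and leaving out each library.

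Named genes were the 10 highest and 5 lowest r with Rreb1, up to 3 called genes per direction and pathway list, 5 listed neighbours per side, Smc3 and the next gene in the order of decreases; others were chosen after their values were seen. Rreb1 and all lists were chosen with earlier results of these data known. Some listed genes counted in the totals are not reported here by name.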

Additional observations from a re-analysis of the deposited data

Results flagged for a closer look

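Each group of values was examined for a library set apart from the rest of its group. Of 112 groups, 7 had one, where chance gives about 5.6 (1 in 20). Omp was at 5.58 CPM in WT 11, with the next WT library at 2.43. Grb2 was at 132 CPM in WT 11, with the next at 142. Riok1 was at 20.3 CPM in cKO 13, with the next at 19.1. The score of the CtBP corepressor list was 5.44 in WT 4, with the next at 5.48, and that of the Ras to ERK list was 5.95 in WT 6, with the next at 6. The score of the mammillary markers was 0.688 in WT 11, with the next at 2.85. WT 1 had 68.7 M reads (68744112), with the next library at 24.0 M (24010001). WT 11 was also the library with the highest Rreb1, which by itself did not stand apart by this measure.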

How the results depend on the processing

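The log2 difference of Rreb1 stayed between -1.55 and -1.28 when a library was left out and was -1.13 with the thalamic score; under the other alternatives run it was -1.49 to -1.42. The count of genes called between the groups by limma, 2172, was 682 with the thalamic score, and 1161 (without WT 1) to 2309 when a library was left out. Median centring put 1377 of 2431 calls (56.6%) higher, against 1004 of 2172 (46.2%). The count of genes tied to Rreb1 within group, 2147, was 1423 over all genes above 0, 238 in WT alone (7 libraries), 895 on ranks with an ordinary regression, 0 with the first component in the model (added once the data had been seen; 1034 at an unadjusted p under 0.05), and 807 (without WT 5) to 2632 when a library was left out. The called count between groups with that component was 3545. The r of the thalamic score with Rreb1 was 0.105 (without WT 11) to 0.515 when a library was left out. Of the 15 genes most tied to Rreb1, 15 were not past the threshold with the first component (r of Celf5 0.864), Gm52328, Gatd1, Snn, Ptp4a2 and Sdha were not in WT alone, Gm52328 was not without WT 11 (limma adjusted p = 0.0776) and Gatd1 not without WT 5 (0.0514). For genes named between the groups, 374 of 501 values under the alternatives fell on the same side of the threshold as reported, genes never past it included, 127 were no longer past it, and no called value changed sign. For these changes the cause was not tested. No paired analysis was possible because the groups share no replicate number. Depth limits Omp and Gm52328, at as few as 9 and 11 reads.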

Other observations

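With the group difference left in, the genes most like Rreb1 over the 12 libraries were Gm52328 (r = 0.982), Phka2 (0.981), Tgfbr3l (0.978), Cuedc1 (0.974) and Gm46967 (0.972). Since Rreb1 was chosen for its group difference, this is a description with no test. Phka2, a regulatory subunit of phosphorylase kinase, was at 40.7 to 52.2 CPM in WT and at 32.2 to 36.5 CPM in cKO, and within group its r with Rreb1 was 0.929. Cuedc1 was at 63.7 to 78.6 CPM in WT and at 50.9 to 62.0 CPM in cKO, with a within-group r of 0.907. Tgfbr3l was at 4.70 to 7.77 CPM in WT and at 2.89 to 4.07 CPM in cKO. In these 5 genes, WT 11 was the highest library and the groups did not overlap, where 3.2% of all tested genes had such groups with cKO lower; their likeness to Rreb1 with the group difference left in favours such genes. Their log2 differences ran from -0.64 for Tgfbr3l to -0.32 for Cuedc1, against -1.43 for Rreb1. Smc3 itself had a within-group r of 0.461 with Rreb1 (exact permutation p = 0.124; rho = 0.413, exact p = 0.197; limma adjusted p = 0.306; r = 0.548 without WT 5 and WT 11).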
